A study of Mus musculus with 3 samples.

Results

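The genes described are 40 markers of endothelial identity and endothelial activation. They were chosen by name from what is known of endothelium: genes of cell junctions and the cell surface, genes of blood clotting control, transcription factors, leukocyte adhesion molecules, genes of vessel sprouting and genes of lymphatic endothelium. Earlier results of these data were known when the list was drawn up. All 40 had a named probe, out of 19751 genes named on the array. The cells were primary cultures grown from the erectile tissue (corpus cavernosum) of C57BL/6 mice, labelled as endothelial and kept in a serum-rich medium with heparin and vascular endothelial growth factor A. There were 3 groups of 1 single-colour array each: high glucose (30 mmol) with an siRNA against Ninj1 (200 pmol), high glucose (30 mmol) without it, and normal glucose (5 mmol) without it, all after 48 h. The RNA on each array was a pool of 3 numbered samples, so a group has no replicate, no test was run, and higher or lower is said of single arrays. Whether the cells without it were transfected with a non-targeting siRNA is not in the labels.

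Ninj1, the siRNA's target, gave a signal of 25539 ± 2554 on the siRNA-labelled array, 16291 ± 1629 on the high-glucose-labelled array and 20413 ± 2041 on the normal-glucose-labelled array, so the array meant to carry the knockdown had the most of it and the high-glucose-labelled array the least. In the deposited file names, the words for siRNA and for high glucose are exchanged between these arrays. Arrays are therefore called by their labels throughout, as siRNA-labelled, high-glucose-labelled and normal-glucose-labelled, and a direction is tied to those labels alone. Signals are background-subtracted brightness on a linear scale. The error after ± is the one that the scanner software assigns to a spot, and it covers the spot only, not the culture or the hybridisation. Differences are of log2 signal after subtracting each array's 75th percentile (2024, 1729 and 1779.7 on the siRNA-, high-glucose- and normal-glucose-labelled arrays), called scaled differences below. That of Ninj1 was 0.42, siRNA label minus high-glucose label. A gene counted as past the threshold at a difference of at least 2-fold. Probes of different genes differ in brightness, so signals are set against each other only for the same gene.

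Endothelial cells line blood and lymph vessels. They are recognised by a set of junction and surface proteins that hold neighbouring cells together, and by transcription factors of the ETS, SoxF, GATA and KLF families that keep those genes active. When activated by cytokines or injury they put selectins and immunoglobulin-family adhesion molecules on their surface, which lets leukocytes roll and then stick, while thrombomodulin and the endothelial protein C receptor keep blood from clotting on them. In erectile tissue, endothelium lines the blood spaces that fill during erection and is a local source of nitric oxide.

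Of the 40 genes, 35 were well above background on at least 1 array and 32 on every array. Over all named genes, 79.8% were above background on at least 1 array and 72.7% on every array. The 5 that were not well above background on any array include defining endothelial genes. Erg, the ETS factor that endothelium depends on, was not read by either of its probes, with signals of 3.50, 4.30 and 4.56 on its best one on the siRNA-, high-glucose- and normal-glucose-labelled arrays. Emcn, encoding the sialomucin endomucin of capillaries and veins, gave 3.23, 10.2 and 4.36, Sox18 10.3, 3.84 and 4.04, Tal1, a factor of blood and endothelial precursors, 8.02, 5.31 and 6.78, and Prox1, the master factor of lymphatic endothelium, 3.06, 3.72 and 3.96. The dimmest signal that was well above background was 11.7, 16.4 and 16.9 on these arrays in the same order.

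Pecam1, the junctional adhesion receptor most used to identify endothelium, was read on all arrays, at 72.4 ± 7.90 (siRNA label), 76.5 ± 8.56 (high-glucose label) and 61.9 ± 7.42 (normal-glucose label). Vwf, von Willebrand factor, was read on all arrays too, and Cldn5, the claudin of endothelial tight junctions, on the high-glucose- and normal-glucose-labelled arrays. A list of 30 other endothelial genes was also read in part: 29 had a named probe, 27 were well above background on at least 1 array and 23 on every array. In it Kdr, the main receptor of vascular endothelial growth factor A, was read at 8278, 7298 and 7440.0 on the siRNA-, high-glucose- and normal-glucose-labelled arrays, and Nos3, endothelial nitric oxide synthase, was read at 364, 286 and 295. Tie1 was at background throughout, at 3.06, 3.72 and 3.98, and Tek, the angiopoietin receptor, was read only on the high-glucose- and normal-glucose-labelled arrays, at 38.1 ± 5.19 and 41.2 ± 5.57. Kdr, Nos3, Tie1 and Tek were singled out after their values were seen.

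**Figure D1:**
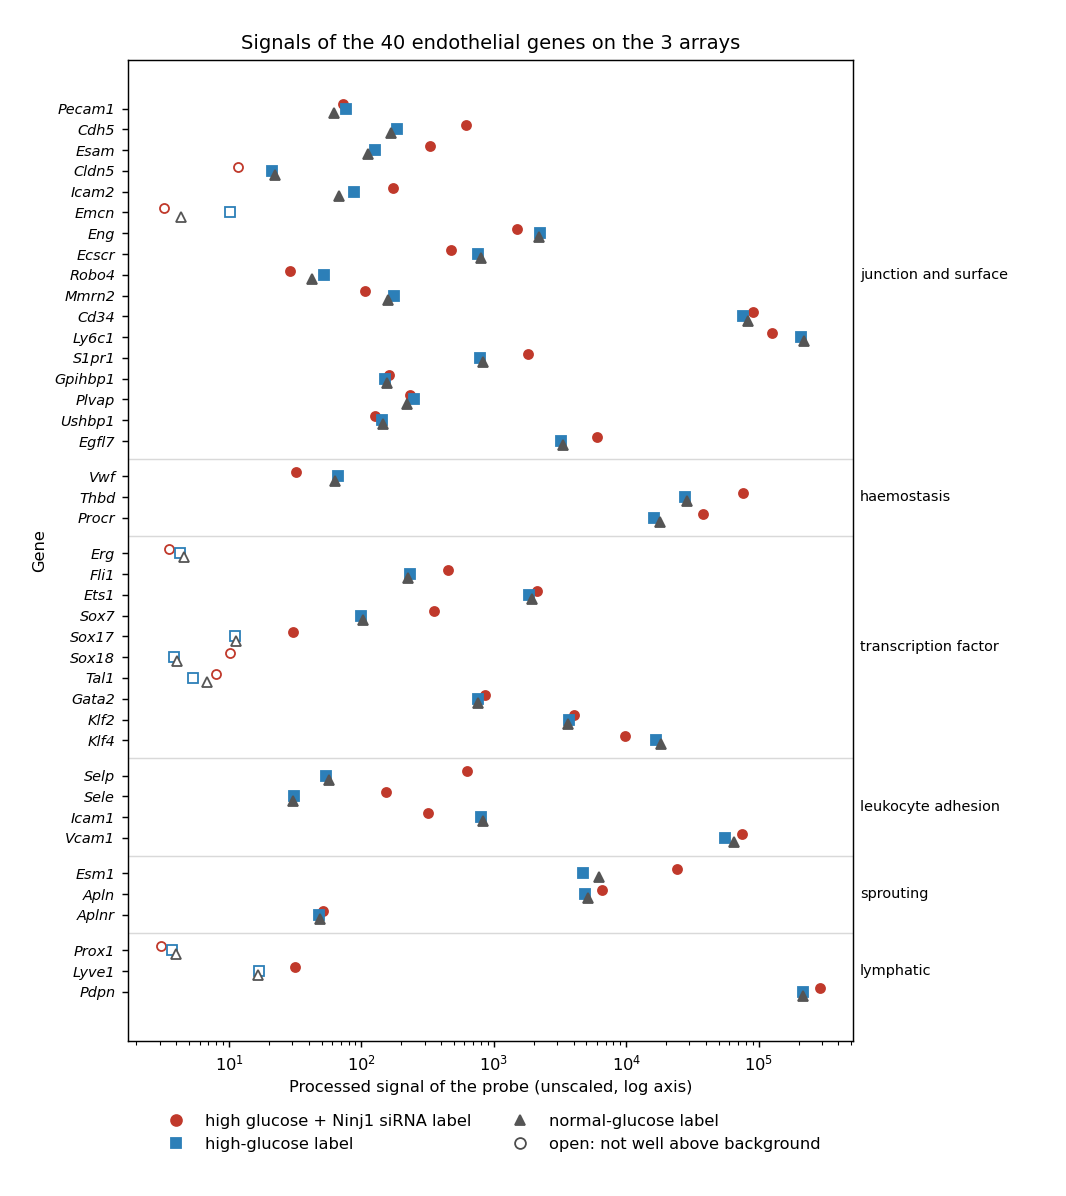
Unscaled processed signal of each gene's probe (log axis) on the siRNA-labelled (circles), high-glucose-labelled (squares) and normal-glucose-labelled (triangles) array, with genes grouped by role; open symbols are not well above background. Squares and triangles lie close together for almost every gene, and the circles stand apart for genes such as Selp (632 against 54.3 under the high-glucose label).

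The comparison of the siRNA label with the high-glucose label asks how the siRNA alters cells in high glucose. The endothelial genes differed in both directions, with no common shift. Past 2-fold stood 7 of the 35 genes with a value on the higher side (20.0%, against 6.63% of all genes compared) and 5 on the lower side (14.3%, against 8.35%). Because the list was drawn up with earlier results known, these shares only describe it. The higher genes were Selp, Esm1, Sele, Sox7, Cdh5, Thbd and Esam, and the lower ones Icam1, Vwf, Robo4, Cldn5 and Klf4. Of the 32 measured on both arrays, 16 were higher and 16 lower, and their median scaled difference was -0.0019, against 0.011 over the 14521 genes measured on both. For 20 of the 32 the difference was larger than 2 times the software error of the difference, which ranged between 0.20 and 0.28 on the log2 scale. Over all measured genes that share was 40.3%. In RNA of whole cultures, fewer cells of a type and less RNA per cell cannot be told apart. Just short of 2-fold stood Procr on the higher side (1.00 after rounding) and Ly6c1 on the lower side (-0.97), and just past it Esam (1.15) and Klf4 (-1.02).

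**Figure D2:**
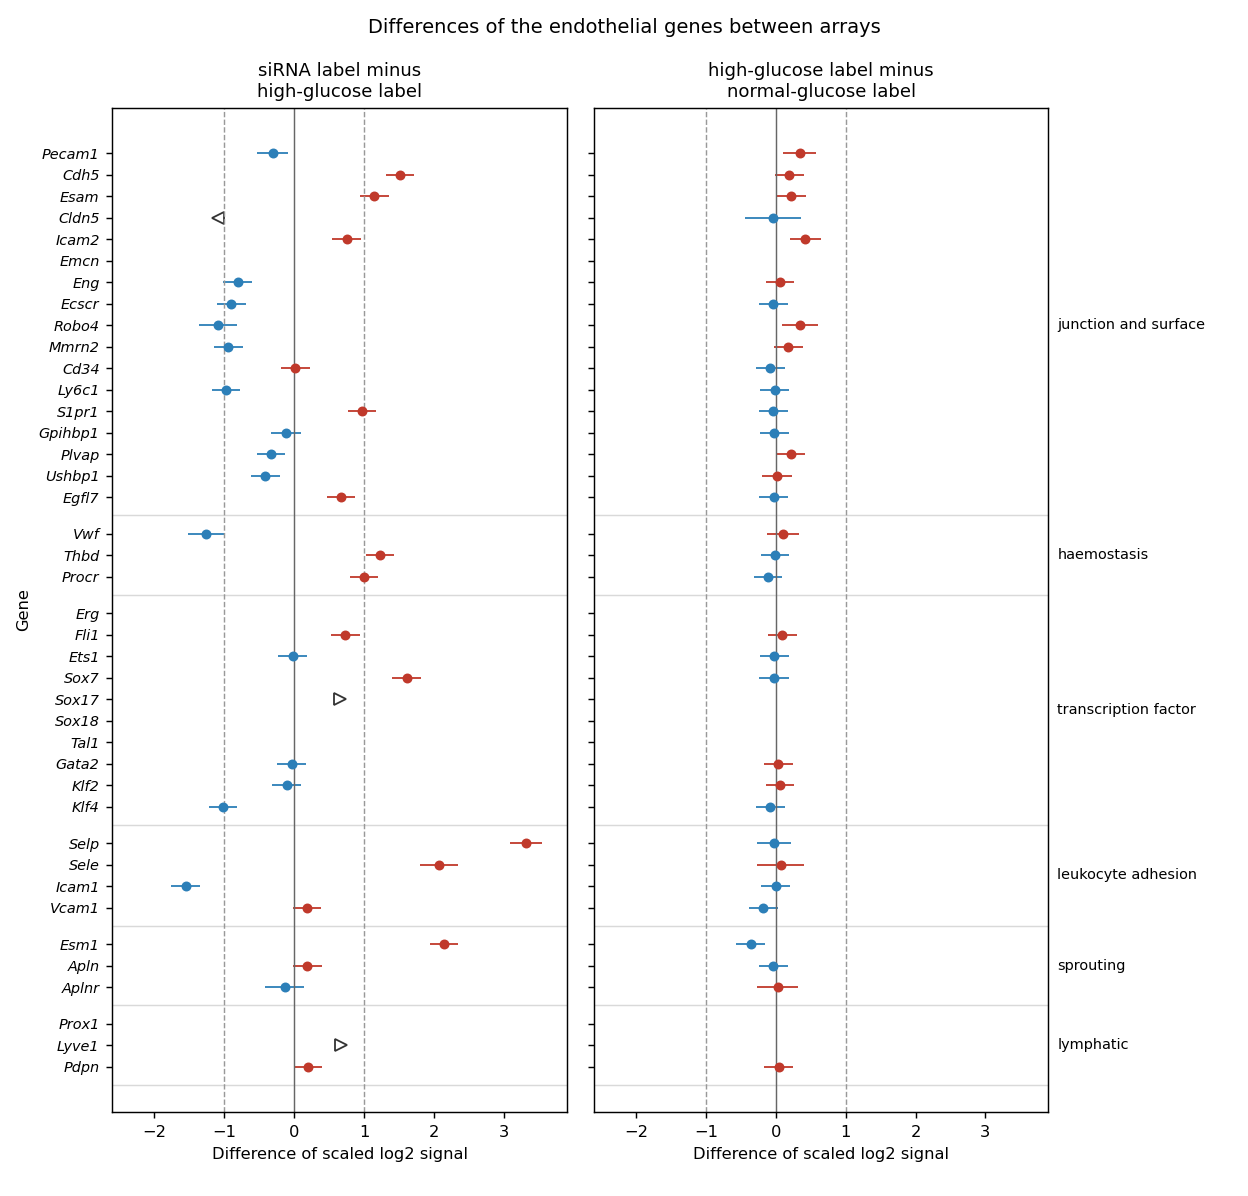
Scaled log2 difference of each gene, siRNA label minus high-glucose label on the left and high-glucose label minus normal-glucose label on the right, with the software's error of the difference. Dashed lines mark 2-fold. Open triangles are genes where 1 array was not well above background, given as bounds except for Cldn5 and Lyve1. On the left the genes spread between -1.55 (Icam1) and 3.32 (Selp), on the right between -0.36 (Esm1) and 0.42 (Icam2).

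Leukocyte adhesion molecules held the largest difference and went both ways. Selp encodes P-selectin, which endothelium stores in granules and brings to the surface within minutes of activation. Its probe is printed 10 times, so it is the 1 gene of the 40 with spot replicates. The spots gave 590.4 to 675 with a median of 628 on the siRNA-labelled array, 46.4 to 63.2 with a median of 55.5 on the high-glucose-labelled array and 50.1 to 64.9 with a median of 57.6 on the normal-glucose-labelled array. No spot on the siRNA-labelled array came near those of the other arrays, whose spots overlapped each other. Averaged on the log scale, the signal was 632, 54.3 and 56.7 on the arrays in that order. The scaled difference was 3.32 (9.96-fold higher), against a spot SD of 0.060, 0.13 and 0.13 on the log2 scale on the arrays in the same order.

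**Figure D3:**
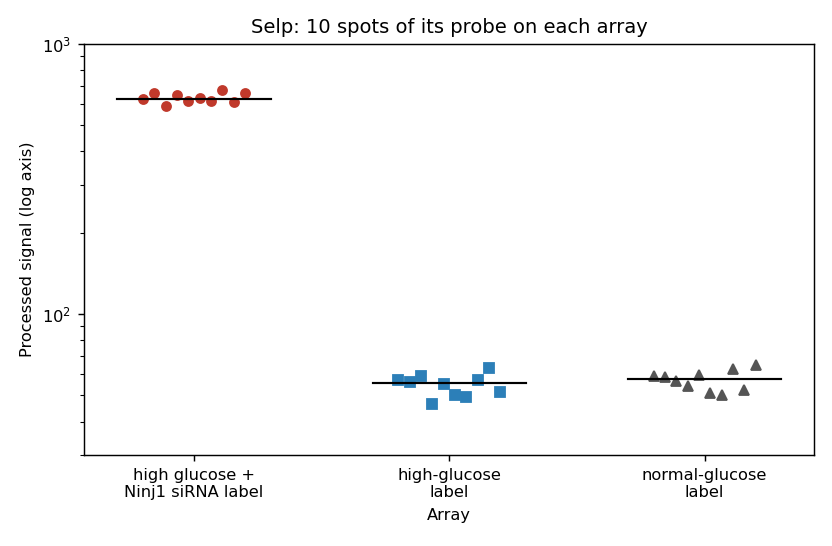
Processed signal (log axis) of the 10 spots of the Selp probe on each array, with the median as a black line. All 10 spots of the siRNA-labelled array lie at 590.4 or above, and all spots of the other arrays at 64.9 or below.

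Sele, encoding E-selectin, which endothelium makes anew after inflammatory cytokines, gave 154 ± 15.7 on the siRNA-labelled array, 31.1 ± 4.98 on the high-glucose-labelled array and 30.5 ± 5.12 on the normal-glucose-labelled array. Against the high-glucose label it was 4.22-fold higher (2.08), while the other 2 arrays were within their error of each other. Icam1, the immunoglobulin-family ligand of leukocyte integrins, went the other way, with 318 ± 31.9 on the siRNA-labelled array, 796 ± 79.7 on the high-glucose-labelled array and 821 ± 82.2 on the normal-glucose-labelled array. That made it 2.93-fold lower (-1.55), the largest difference on the lower side among the 40 genes by their brightest probes (the second Ly6c1 probe stood at -1.56). Vcam1, the ligand of another leukocyte integrin, was read on every array, at 74528 ± 7453 (siRNA label), 56026 ± 5603 (high-glucose label) and 65107 ± 6511 (normal-glucose label). Its scaled difference of 0.18 was within the error, and its second probe, at 7799, 8246 and 8691 on the arrays in that order, stood at -0.31, so its probes do not give a direction. The selectin genes and Icam1 thus differed in opposite directions on the same arrays.

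RefSeq promoters, from 250 bases before the gene's start to 50 bases after it, are printed for the 3 genes with the largest higher values and the gene with the largest lower value, to show the start regions of genes that went opposite ways. Capitals mark matches on either strand to 4 motifs. The core bound by ETS factors was searched as AGGAAG. The AP-1 motif was searched as TGAGTCA, and the TATA box as TATAAA. The NF-kappaB motif was searched as 3 G, any 2 bases, 3 T and 2 C. No matches overlap in these 4 windows.
Selp (GRCm38.p6, chr1:164115014-164115313, plus strand): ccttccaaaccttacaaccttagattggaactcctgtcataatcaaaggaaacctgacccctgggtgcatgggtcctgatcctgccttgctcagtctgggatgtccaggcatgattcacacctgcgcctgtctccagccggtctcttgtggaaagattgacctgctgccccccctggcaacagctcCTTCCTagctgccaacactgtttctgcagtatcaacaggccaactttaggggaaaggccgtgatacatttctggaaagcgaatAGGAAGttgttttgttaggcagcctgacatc
Sele (GRCm38.p6, chr1:164047984-164048283, plus strand): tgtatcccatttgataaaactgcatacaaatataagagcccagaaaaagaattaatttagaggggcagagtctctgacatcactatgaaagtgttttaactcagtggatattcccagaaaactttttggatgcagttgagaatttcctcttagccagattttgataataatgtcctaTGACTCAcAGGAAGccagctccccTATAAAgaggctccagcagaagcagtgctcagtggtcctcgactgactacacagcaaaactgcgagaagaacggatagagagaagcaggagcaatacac
Esm1 (GRCm38.p6, chr13:113209409-113209708, plus strand): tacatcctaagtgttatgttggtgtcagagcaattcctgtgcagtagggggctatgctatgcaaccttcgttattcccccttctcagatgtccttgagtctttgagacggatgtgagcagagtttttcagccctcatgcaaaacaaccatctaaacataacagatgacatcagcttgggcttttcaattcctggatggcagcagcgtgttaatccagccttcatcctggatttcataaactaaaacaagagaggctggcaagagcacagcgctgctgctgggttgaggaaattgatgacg
Icam1 (GRCm38.p6, chr9:21015690-21015989, plus strand): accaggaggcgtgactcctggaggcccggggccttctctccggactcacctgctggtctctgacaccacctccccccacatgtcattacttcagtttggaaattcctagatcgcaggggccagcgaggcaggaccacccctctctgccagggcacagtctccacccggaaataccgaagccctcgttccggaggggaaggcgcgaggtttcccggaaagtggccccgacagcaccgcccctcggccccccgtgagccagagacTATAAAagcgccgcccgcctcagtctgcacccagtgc

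In the Sele window, the TGAGTCA match starts 73 bases before the start, read on the opposite strand, followed by AGGAAG at 65 bases and TATAAA at 49 bases before it. Selp holds AGGAAG 64 bases before the start on the opposite strand and once more within the first 50 transcribed bases, Icam1 holds TATAAA only, after the annotated start, and Esm1 holds none of the 4. Promoters of 21 of the 40 genes were searched, 29 windows in all. For these genes any window on a certain chromosome was left out, while the set of all promoters kept that chromosome. AGGAAG was in 12 of the 29 (41.4%), against 35.4% of all 32851 promoters of the same length, TGAGTCA in 2 (6.90%, against 5.20%), TATAAA in 5 (17.2%, against 13.6%) and the NF-kappaB motif in 0 (against 1.63%). A match is a run of letters, not a shown binding site, and no match says only that these letters are not in this window. The motifs and genes were chosen after the values were seen.

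A list of 18 other genes of leukocyte adhesion and of NF-kappaB response, the pathway that switches on adhesion molecules, had 1 gene past 2-fold on the higher side (against 6.63% of all genes compared) and 2 on the lower side (against 8.35%), so few that they do not set the list apart, with a median scaled difference of -0.23. The higher one was Il6, an inflammatory cytokine (2.24, signals of 55604, 10028 and 11218), and the next were Traf1, a receptor adaptor (0.87), and F11r, a junctional adhesion molecule (0.50). The lower ones were the transcription factor Irf1 (-1.25) and the NF-kappaB inhibitor Tnfaip3 (-1.23), followed by the NF-kappaB inhibitor Nfkbie (-0.96). Nfkbia, the main NF-kappaB inhibitor gene, singled out after its value was seen, stood at -0.21.

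Among the 17 junction and surface genes, 16 were readable and went both ways, with a median of -0.31 over the 15 measured on both arrays. Past 2-fold stood 2 on the higher side (Cdh5 and Esam) and 2 on the lower side (Robo4 and Cldn5). Each is 12.5% of the 16, against 6.63% higher and 8.35% lower of all genes compared, so few that they do not set the group apart. Cdh5, the cadherin of endothelial adherens junctions, gave 618 ± 61.9 on the siRNA-labelled array, 185 ± 18.8 on the high-glucose-labelled array and 166 ± 17.0 on the normal-glucose-labelled array and was 2.86-fold higher (1.51). Esam, an immunoglobulin-family molecule of tight junctions, had signals of 327 ± 32.9 (siRNA label), 126 ± 13.2 (high-glucose label) and 112 ± 12.0 (normal-glucose label) (2.22-fold higher, 1.15). With normexp background correction Esam stood at 0.78, under 2-fold. Icam2, a constitutive integrin ligand of endothelium, stood at 173 ± 17.5 (siRNA label), 87.8 ± 9.35 (high-glucose label) and 67.3 ± 7.50 (normal-glucose label) (0.75). Cldn5 pointed the other way: it was not well above background on the siRNA-labelled array (11.8 ± 3.30), against 21.3 ± 4.14 on the high-glucose-labelled and 22.5 ± 4.35 on the normal-glucose-labelled array. With the dim signal taken as read, it was 2.12-fold lower than with the high-glucose label, which is not a bound. Read only on the arrays where it was high, Cldn5 could only point lower, so its direction adds nothing. Its value rests on signals close to background, and Cldn5 stayed under 2-fold with cyclic loess (-0.92), the deposited value table (-0.93) and normexp (-0.49). For Pecam1 the scaled difference was -0.31, within 2 times its error.

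Surface and secreted genes split as well. S1pr1, the sphingosine 1-phosphate receptor that stabilises junctions, was at 1813 ± 181 (siRNA label), 791 ± 79.2 (high-glucose label) and 832 ± 83.3 (normal-glucose label) (0.97), just short of 2-fold. Egfl7, a secreted factor of growing vessels, was at 5967 ± 597 (siRNA label), 3194 ± 319 (high-glucose label) and 3355 ± 335 (normal-glucose label) (0.67). Both were higher under the siRNA label by more than 2 times the software error. On the lower side were Robo4, the endothelial Roundabout receptor, at 28.7 ± 4.0 (siRNA label), 52.1 ± 6.23 (high-glucose label) and 42.2 ± 5.54 (normal-glucose label) (2.13-fold lower, -1.09), Mmrn2, a matrix protein of the vessel wall (107, 175 and 159 on the siRNA-, high-glucose- and normal-glucose-labelled arrays, -0.94), Ecscr, an endothelial regulator of migration (478, 761 and 801, -0.90), and Eng, the TGF-beta co-receptor endoglin (1499.7, 2242 and 2207, -0.81). Robo4 was close to background on all arrays, and it stayed under 2-fold with normexp correction (-0.57) and with quantile normalization (-0.99).

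Ly6c1, a surface protein of endothelium and monocytes, was at 125335 ± 12534 (siRNA label), 210097 ± 21009.7 (high-glucose label) and 218706 ± 21871 (normal-glucose label). Its scaled difference was -0.97, and its second probe, at 11232, 28278 and 27294 in the same order, gave -1.56, past 2-fold. Ly6c1 has a near-identical neighbour, Ly6c2, and its probes may read both. Cd34, a sialomucin of endothelium, progenitors and stromal cells, hardly differed, at 90072 ± 9007 (siRNA label), 76066 ± 7607 (high-glucose label) and 82619.7 ± 8262 (normal-glucose label) (0.02, and 0.00 on its second probe). Gpihbp1, which anchors lipoprotein lipase to capillaries, stood at -0.12 with signals of 163, 150.5 and 157, and Ushbp1 at -0.41 with 127, 144 and 147, both within 2 times the error. The second Ushbp1 probe, close to background at 15.9, 21.5 and 27.7 in the same order, stood at -0.65. Plvap, the protein of the diaphragms of fenestrae and caveolae, had -0.33 on its brighter probe (231, 248 and 219.6) and 0.56 on the other (99.1, 57.3 and 68.0), so no direction can be given. Of the 7 genes with several readable probes, the probes of 4 gave the same direction and those of Plvap, Vcam1 and Ets1 did not.

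The transcription factors were led by Sox7, a SoxF factor of vessel formation and arterial identity, with 352 ± 35.4 on the siRNA-labelled array, 98.6 ± 10.7 on the high-glucose-labelled array and 103 ± 11.2 on the normal-glucose-labelled array. That is 3.05-fold higher against the high-glucose label (1.61). Its relative Sox17 was read on the siRNA-labelled array alone, at 30.2 ± 4.19, against 11.04 ± 3.77 and 11.3 ± 4.01 on the high-glucose- and normal-glucose-labelled arrays, and was at least 1.58-fold higher than under the high-glucose label. Its other probe was at background on every array. Sox18, the third member of the family, was at background throughout, so its level cannot be compared. Sox17 could be compared only because it was read on the array where it was high, so its direction adds nothing, and of the SoxF genes Sox7 alone was measured on every array.

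Fli1, an ETS factor of endothelium and blood cells, was at 451 ± 45.2 (siRNA label), 232 ± 23.4 (high-glucose label) and 224 ± 22.7 (normal-glucose label) (0.73). Ets1 (2129, 1845 and 1926 on the siRNA-, high-glucose- and normal-glucose-labelled arrays, -0.02) and Gata2, which acts in endothelium and blood stem cells (862, 754 and 756, -0.03), were within their errors. Klf2 and Klf4 are induced in endothelium by blood flow. Klf2 stood at 4031 ± 403 (siRNA label), 3704 ± 370.4 (high-glucose label) and 3654 ± 365 (normal-glucose label) (-0.10), within its error, and Klf4 at 9715 ± 972 (siRNA label), 16783 ± 1678 (high-glucose label) and 18197 ± 1819.7 (normal-glucose label), which is 2.02-fold lower (-1.02). The 2 flow-induced factors were thus not displaced alike.

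Of the clotting genes, both anticoagulant receptors were higher and von Willebrand factor was lower under the siRNA label. Thbd, thrombomodulin, which turns thrombin into an activator of protein C, gave 76444 ± 7644 on the siRNA-labelled array, 27862 ± 2786 on the high-glucose-labelled array and 28906 ± 2891 on the normal-glucose-labelled array (2.34-fold higher, 1.23). Procr, the endothelial protein C receptor, gave 38145 ± 3814 on the siRNA-labelled array, 16319 ± 1632 on the high-glucose-labelled array and 18106 ± 1811 on the normal-glucose-labelled array (2.00-fold, 1.00). These partners in protein C activation stood at like differences, Procr just short of 2-fold. Vwf, which tethers platelets and is stored in the same granules as P-selectin, was at 32.3 ± 4.42 (siRNA label), 66.2 ± 7.51 (high-glucose label) and 63.3 ± 7.32 (normal-glucose label) (2.40-fold lower, -1.26), opposite to Selp. Its signals were low, and with normexp correction it stood at -0.64, under 2-fold.

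A further list of 13 clotting and fibrinolysis genes, all above background on every array, had 3 genes past 2-fold on each side (against 6.63% higher and 8.35% lower of all genes compared), with a median scaled difference of -0.27. Higher were Plau, the plasminogen activator urokinase (2711, 431 and 437 on the siRNA-, high-glucose- and normal-glucose-labelled arrays, 2.43), its receptor Plaur (20260.4, 4939 and 5203, 1.81) and Nt5e, which makes adenosine at the cell surface (1.11). Lower were Plat, the tissue-type plasminogen activator released by endothelium (731, 2564 and 2798, -2.04), the clotting factor gene F8 (-1.40) and F3, tissue factor, which starts clotting (-1.06). The plasminogen activator genes therefore differed in opposite directions.

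Of the sprouting genes, Esm1 stood far from the rest. Esm1 encodes endocan, a proteoglycan made by the tip cells that lead a growing vessel, and gave 24285 ± 2429 on the siRNA-labelled array, 4682 ± 468 on the high-glucose-labelled array and 6172 ± 617 on the normal-glucose-labelled array. The scaled difference was 2.15 (4.43-fold higher). Apln, the peptide apelin that tip cells also make, was at 6550.2 ± 655 (siRNA label), 4905 ± 491 (high-glucose label) and 5167 ± 517 (normal-glucose label) (0.19), and its receptor Aplnr was at 51.4 ± 6.50 (siRNA label), 48.2 ± 6.91 (high-glucose label) and 48.7 ± 7.09 (normal-glucose label) (-0.13). Both were within their errors, so the tip cell genes Esm1 and Apln did not differ to a like degree.

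The lymphatic markers gave no lymphatic pattern. Pdpn, podoplanin, found on lymphatic endothelium and on many fibroblasts, was read on every array, at 289526 ± 28953 (siRNA label), 215851 ± 21585 (high-glucose label) and 215956 ± 21596 (normal-glucose label) (0.20, and 0.23 on its second probe). Lyve1, the hyaluronan receptor of lymphatic vessels and some macrophages, was read on the siRNA-labelled array alone, at 31.5 ± 4.58, against 16.9 ± 4.28 and 16.5 ± 4.45 on the high-glucose- and normal-glucose-labelled arrays (1.59-fold higher than under the high-glucose label with the dim signal taken as read, not a bound). Because Lyve1 was read only on the array where it was high, it could only point higher, so its direction adds nothing. Prox1 was not read on any array.

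The list of 30 other endothelial genes differed in both directions too. Of 26 with a value, 1 was past 2-fold on the higher side (against 6.63% of all genes compared) and 4 on the lower side (against 8.35%), with a median of -0.16 over the 23 measured. Notch4, an endothelial Notch receptor, stood at 1.01 with signals of 162, 68.3 and 74.2 on the siRNA-, high-glucose- and normal-glucose-labelled arrays, and the growth factor receptors Flt1 and Flt4 at 0.62 and 0.59. Lower were Clec14a, an endothelial lectin that binds multimerin (17.5, 64.5 and 62.0, -2.11), the fatty acid receptor Cd36 (196, 579 and 532, -1.79) and the scavenger receptor Stab2 (-1.05), and Tek was at least 3.81-fold lower. Read only on the arrays where it was high, Tek could only point lower, so its direction adds nothing. Clec14a and Mmrn2, which encode binding partners, were both on the lower side.

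Markers of other cell types differed in this comparison too. Of 17 fibroblast genes read, 6 were past 2-fold on the lower side (35.3%, against 8.35% of all genes compared) and 0 on the higher side (against 6.63%), with a median of -0.71. The list's unscaled summed signal was 1356485, 1541009 and 1584063 on the siRNA-, high-glucose- and normal-glucose-labelled arrays. Such a sum is carried by the brightest probes of a list and gives no share of a cell type. The matrix genes Dpt (-3.08), Lum (-2.76) and Fbln1 (-2.19) were lowest, and Fap (0.86), Pi16 (0.29) and Thy1 (0.10) were on the higher side. Col1a2, a main collagen gene of fibroblasts, was read on all arrays, at 129551, 189258 and 192455. It was singled out after its values were seen.

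Smooth muscle and pericyte genes had 1 of 12 past 2-fold on the higher side (Cspg4, 1.24; 8.33%, against 6.63% of all genes compared). On the lower side were 4 (33.3%, against 8.35%), led by Acta2 (-2.33), Pdgfrb (-1.53) and Cnn1 (-1.34). The list's median was -0.31, with unscaled summed signals of 66702, 103287 and 105014 on the arrays in that order. Kcnj8 stood at 1.00, just short of 2-fold, and Smtn at 0.11. Myh11, Myocd and Lmod1, which define mature smooth muscle, were not well above background on any array. Macrophage and leukocyte genes had 1 of 13 higher (Cd14, 1.52), which is 7.69% and near the share of all genes. Lower were 3 (Adgre1, -2.06, Lyz2, -2.05, and Ptprc, -1.25), which is 23.1%, against 8.35% of all genes compared. Of the 13, 5 were on the higher side and 8 on the lower, with a median of -0.25. The unscaled summed signals were 43118, 34853 and 37149.8. The higher sum under the siRNA label comes with Cd14 (16711, 4989 and 5420) and gives no direction for the list. Fcgr1 (0.36) and Csf1r (0.11) were the next on the higher side. The part of these cells in the differences of the endothelial genes was not tested.

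**Figure D4:**
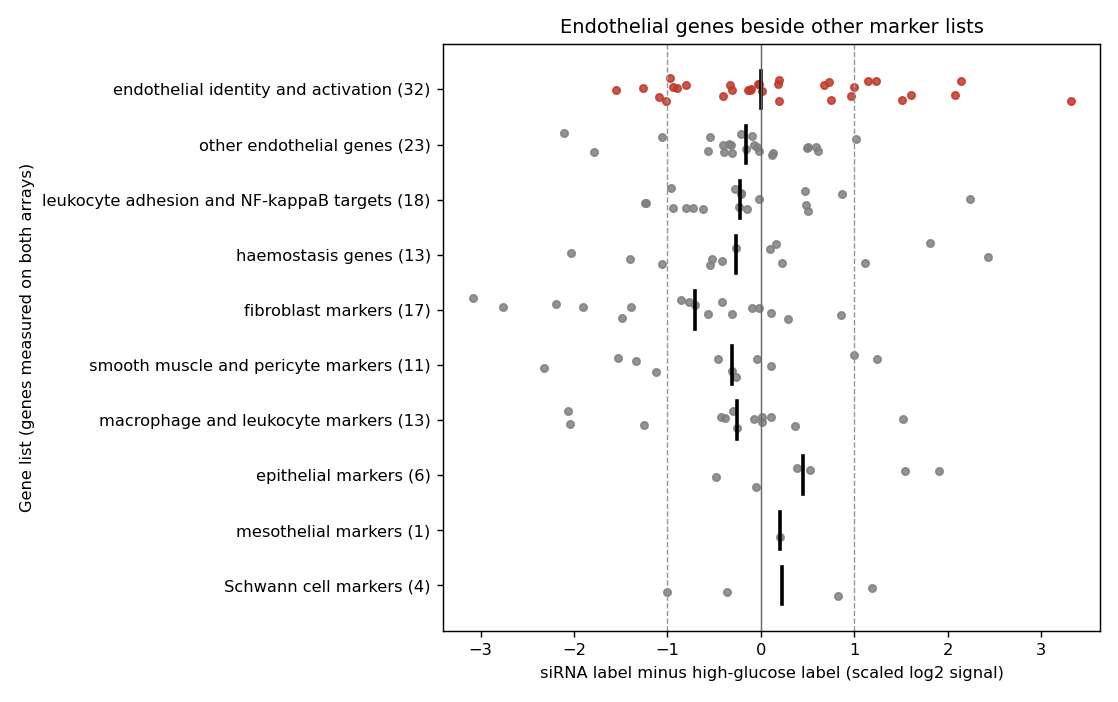
Scaled log2 difference, siRNA label minus high-glucose label, of each gene measured on both arrays, with the endothelial genes in red, other lists in grey, the list median as a black bar and dashed lines at 2-fold; the number of genes measured is in brackets. The endothelial genes spread to both sides of a median of -0.0019, and the fibroblast genes lie mostly on the lower side with a median of -0.71.

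The comparison of the high-glucose label with the normal-glucose label asks how high glucose alone alters the cells. None of the 33 endothelial genes measured on both arrays differed by 2-fold, with 0 higher (against 0.816% of all genes compared) and 0 lower (against 0.69%). Their median scaled difference was -0.0027, against -0.013 over all measured genes. No difference of these 33 was larger than 2 times its software error, a share that was 1.46% over all measured genes. The highest values were those of Icam2 (0.42), Pecam1 (0.35) and Robo4 (0.35), all from signals under 100, where spots of a repeated probe typically differed by 0.21. The lowest were those of Esm1 (-0.36) and Vcam1 (-0.18), both bright, where spots typically differed by 0.069. For Vcam1, the second probe stood at -0.03.

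Of the 4 leukocyte adhesion genes, Icam1 differed by -0.0027, Selp by -0.02, Sele by 0.07 and Vcam1 by the -0.18 given above, each within its software error, as were Thbd (-0.01), Sox7 (-0.02) and Klf2 (0.06). With 1 array a group, variation between cultures and hybridisations was not measured, so small differences could not be told from it.

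The comparison of the siRNA label with the normal-glucose label shares an array with each of the others, so its values are given beside them and not as further evidence. Of 35 genes with a value, 8 stood past 2-fold on the higher side (22.9%, against 6.48% of all genes compared) and 4 on the lower side (11.4%, against 8.09%), and 20 of the 32 measured differed by more than 2 times the software error (against 39.5% of all measured genes). Selp stood at 3.29 here and 3.32 against the high-glucose label, Sele at 2.15 and 2.08, Esm1 at 1.79 and 2.15, Cdh5 at 1.71 and 1.51, and Icam1 at -1.56 and -1.55. Icam2 was past 2-fold against the normal-glucose label only (1.17), and Robo4 against the high-glucose label only (-0.74 here). Those differences between comparisons were not tested, and the gap of Icam2 and Robo4 between high and normal glucose is given above.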

How the data were processed

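Total RNA of mouse cavernous endothelial cell cultures, pooled over 3 numbered samples per group, was labelled with Cy3 and hybridised to 3 arrays, per the labels. Per the file headers, Agilent Feature Extraction 11.0.1.1 gave each spot a background-subtracted signal, an intensity on a linear scale that was not normalized between arrays. The value table deposited by the authors holds the same intensity: its columns lay within 0.1% of the processed signal for 100% of the 39030 probes with 1 spot, so it is linear and uncentred, with medians of 129, 118 and 118 for the siRNA, high-glucose and normal-glucose labels. No spot of 43020 was saturated. Each array holds 1 group, and all are from 1 slide and 1 scan. The positions recorded inside the files (1, 3 and 2 for the siRNA, high-glucose and normal-glucose labels) match those in the file names for the high-glucose label only.

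Outlier spots (107, 147 and 109 in the same order) were left out, log2 signals averaged per probe and each array's 75th percentile subtracted. A probe was well above background where the software's mark held for at least 50% of its spots. This held for 70.6%, 67.6% and 67.0% of 39429 probes. Where that failed on 1 of 2 arrays, a bound is given, computed with the dim value raised, if lower, to the array's lowest readable one. For Cldn5, and for Lyve1 against the high-glucose label, the dim value was not lower, so the difference is as read. Some probes brighter than that lowest one were not well above background, so the bounds are approximate. Probes were named by accession through the RefSeq table of GRCm38.p6 (26055 probes, 66.1%). The files use mm9, so gene coordinates are not given, and promoter coordinates are RefSeq's on GRCm38.p6. Of several probes, the brightest one that was readable on any array stands for the gene. Exoc3l2, Col6a3, Cd68 and Muc16 had no named probe and have no value. The median spot SD of 300 readable probes printed repeatedly was 0.058 on the log2 scale, or 0.081 for a difference of 2 spots. All 40 genes are named in the text, and of each other list the 3 with the largest measured differences each way, unless stated. The members and lists were chosen with earlier results of these data known. Scripts were tested on simulated arrays. Alternatives were quantile normalization, cyclic loess and normexp (limma 3.58.1, R 4.3.3; offset of 50, on median spot signals, as the files used here hold no mean ones), median scaling, the value table, other filters, probes, thresholds and array assignments. The assignment by slide position and the use of a gene's dimmest readable probe were chosen after seeing the data.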

Additional observations from a re-analysis of the deposited data

How the results depend on the processing

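With 1 array a group no replicate could be left out, and no paired analysis was possible because no group has a second array. The counts and medians of the 3 comparisons kept within 1.5 times and within spot noise under quantile normalization, cyclic loess, median scaling, the deposited value table, a filter on all arrays, the mean over probes, the dimmest readable probe and with outlier spots kept, though Robo4, Cldn5, Procr and Ly6c1 crossed 2-fold under some of these. Normexp background correction left 2 genes at least 2-fold lower against the high-glucose label and 2 against the normal-glucose label, where Cldn5 and Vwf dropped out of both and Robo4 out of the first. Esam dropped out of the higher genes in both, and Icam2 in the second. Without a filter on dim probes, 1 gene (Emcn) was higher under the high-glucose than under the normal-glucose label. Under that setting Emcn also joined the genes lower against the high-glucose label, making 6. Sox17 and Sox18 joined the higher ones, making 9 against the high-glucose label and 10 against the normal-glucose label. At 1.5-fold, 14 genes were higher and 9 lower against the high-glucose label, and 14 and 9 against the normal-glucose label. At 3-fold these were 4 and 0, and 5 and 0. Shares over all genes were not computed at these thresholds or under the alternative processing.

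The array assignment decides every direction. With the high-glucose arrays exchanged, as the file names have it, 8 genes were higher and 4 lower for high glucose over normal glucose, and 0 and 0 for siRNA over normal glucose. For siRNA over high glucose the signs turned by construction: Selp -3.32, Esm1 -2.15, Sele -2.08, Sox7 -1.61, Cdh5 -1.51, Thbd -1.23, Esam -1.15, Icam1 1.55, Vwf 1.26, Robo4 1.09, Cldn5 1.08 and Klf4 1.02. For siRNA over normal glucose, of the genes past 2-fold, Esm1 (-0.36), Sox7 (-0.024), Selp (-0.023), Thbd (-0.011) and Vwf (0.11) changed sign, as did several under 2-fold. Assigned by the slide position inside the files, siRNA over high glucose had 0 genes higher and 0 lower, high glucose over normal glucose 4 and 8, and siRNA over normal glucose 5 and 7. Each reassigned comparison uses a pair of arrays compared above. Its shares over all genes are those given there, with higher and lower swapped where the direction turned. Signals near background limit Cldn5, Sox17, Lyve1, Robo4 and Vwf most.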

Other observations

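Further marker lists were read on the same arrays. Of 10 epithelial genes, 6 were well above background, and Epcam, Cdh1, Krt8 and Cldn4, which define simple epithelium, were not on any array. Krt18 and Krt19, keratins of simple epithelium, were higher on the siRNA-labelled array, with signals of 449, 102 and 87.0 and of 638, 186 and 209 on the siRNA-, high-glucose- and normal-glucose-labelled arrays (scaled log2 differences of 1.90 and 1.55). Krt14, of basal epithelium, stood at 0.52, and on the lower side were Trp63, a factor of basal epithelium, at -0.49 and Esrp1, a splicing factor, at -0.06.

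Of the Schwann cell genes, S100b stood at 1.19 and Ncam1, a neural adhesion molecule, at 0.82, against -0.36 for the factor Sox10. Among mesothelial genes Msln stood at 0.20. Lrrn4 was read on the siRNA-labelled array alone, with signals of 135, 3.46 and 3.62, and was at least 7.05-fold higher there than under the high-glucose label. Lrrn4 could be compared only because it was read on the array where it was high, so its direction adds nothing. Upk3b, Wt1 and Upk1b, further mesothelial markers, were not well above background on any array.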
